A study of Homo sapiens with 12 samples.

Results

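The 45 genes described here act when a cell divides: they drive entry into mitosis, build the spindle, link chromosomes to it at the kinetochore, time anaphase or divide the cell. They were taken by name, each by the probe set with a single gene symbol and the highest mean over all 12 arrays, and they are 45 of the 19775 genes measured in that way. All 45 were tested, with no filter on low values. The cells were IGROV-1, a line established from a human ovarian cancer, and the platform was the Affymetrix Human Genome U133 Plus 2.0 array, with 3 arrays in each of 4 groups. The groups shCXCR4 I and shCXCR4 II are individual clones, each with 1 of 2 short hairpin RNAs (shRNAs) against CXCR4, the receptor for the chemokine CXCL12. Mock cells are pooled clones with a scrambled RNA on the control plasmid. Per the labels, these transfections used Lipofectamine and were followed by 30 days in 4 µg/ml puromycin. Parental cells are the parental IGROV-1 line, and every array in each group took 6 µg of total RNA. Clonal origin and loss of CXCR4 cannot be told apart here, since each knockdown line is 1 clone while Mock is pooled. Nothing in the labels says that the arrays of a group come from separate cultures, so the spread behind each p-value is that between arrays and may be technical.

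Cells enter mitosis when cyclin B and its kinase CDK1 become active, with help from the phosphatase CDC25C and from the Aurora and Polo kinases. Kinesin motors and microtubule binding proteins then assemble the spindle, and the spindle checkpoint holds back the anaphase-promoting complex (APC/C) until every kinetochore is attached. Transcripts of many of these genes are made mainly in G2 and mitosis, from promoters with a cell cycle homology region (CHR) and with CCAAT boxes, which are bound by the DREAM and MuvB complexes and by the factor NF-Y.

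Stretches of 6 promoters are printed because the members share these short motifs. CCNB2 (chr15:59105016-59105155), PLK1 (chr16:23678759-23678898), CDCA8 (chr1:37692386-37692525) and KIF11 (chr10:92593000-92593139) have matches to both motifs. CENPE (chr4:103198334-103198473, minus strand) has the lowest difference between shCXCR4 I and Mock but a match to neither, and PTTG1 (chr5:160421725-160421864) is the member that was higher in shCXCR4 II. The other 5 lie on the plus strand. Each stretch of 140 bases comes from RefSeq's annotation of GRCh38.p14, runs 5′ to 3′ along the gene's strand, and covers 130 bases before the transcript start and 10 after it. Capitals mark a match to TTTGAA or TTCGAA (the CHR) or to CCAAT (the NF-Y box), on either strand, so that TTCAAA and ATTGG are matches on the reverse strand.
CCNB2: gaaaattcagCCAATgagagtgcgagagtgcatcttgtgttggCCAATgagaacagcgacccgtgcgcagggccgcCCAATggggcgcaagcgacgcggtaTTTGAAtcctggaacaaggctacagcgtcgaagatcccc
PLK1: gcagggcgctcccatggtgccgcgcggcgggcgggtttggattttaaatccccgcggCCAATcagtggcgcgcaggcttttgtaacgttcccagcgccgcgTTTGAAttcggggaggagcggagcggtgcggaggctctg
CDCA8: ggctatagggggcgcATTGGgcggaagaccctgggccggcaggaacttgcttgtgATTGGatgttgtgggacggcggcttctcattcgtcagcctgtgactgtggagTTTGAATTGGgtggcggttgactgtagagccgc
KIF11: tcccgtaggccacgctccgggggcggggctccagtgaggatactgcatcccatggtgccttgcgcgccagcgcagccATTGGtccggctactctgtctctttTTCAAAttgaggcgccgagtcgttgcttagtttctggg
CENPE: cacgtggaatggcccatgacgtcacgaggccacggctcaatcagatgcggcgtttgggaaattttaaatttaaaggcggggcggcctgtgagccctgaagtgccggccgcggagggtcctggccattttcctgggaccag
PTTG1: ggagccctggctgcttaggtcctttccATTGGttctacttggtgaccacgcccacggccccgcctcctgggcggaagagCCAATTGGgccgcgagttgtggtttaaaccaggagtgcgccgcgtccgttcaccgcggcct
In CDCA8 a CHR match runs into a reverse CCAAT match, and in PTTG1 a forward and a reverse CCAAT match overlap.

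Windows from 250 bases before to 50 bases after the start were searched for 39 of the 45 members. Windows of FOXM1, AURKA, TPX2, BIRC5, TTK and UBE2C were not used here. A CHR match was found for 30 of the 39 members (76.9%), against 17.2% of the 15382 tested genes with a window. Between 60 bases before and 50 after the start, 26 members had one (66.7%), against 5.58% of those genes. A CCAAT match was found for 31 members (79.5%), against 41.7%, and both motifs stood in 1 window for 24 members (61.5%), against 7.12%. Among lists of related genes, a CHR match was found for 31 of 42 other mitotic genes (73.8%) and 2 of 17 G1/S genes (11.8%). The members without a CHR match were CCNA2, CCNB1, NEK2, AURKB, CENPE, PTTG1, KIF2C, CKAP2 and KIF20A. A match is a description of the letters in the window and says nothing of binding in these cells. Only TTTGAA and TTCGAA were searched as the CHR, so a member without a match may carry another form.

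**Figure D1:**
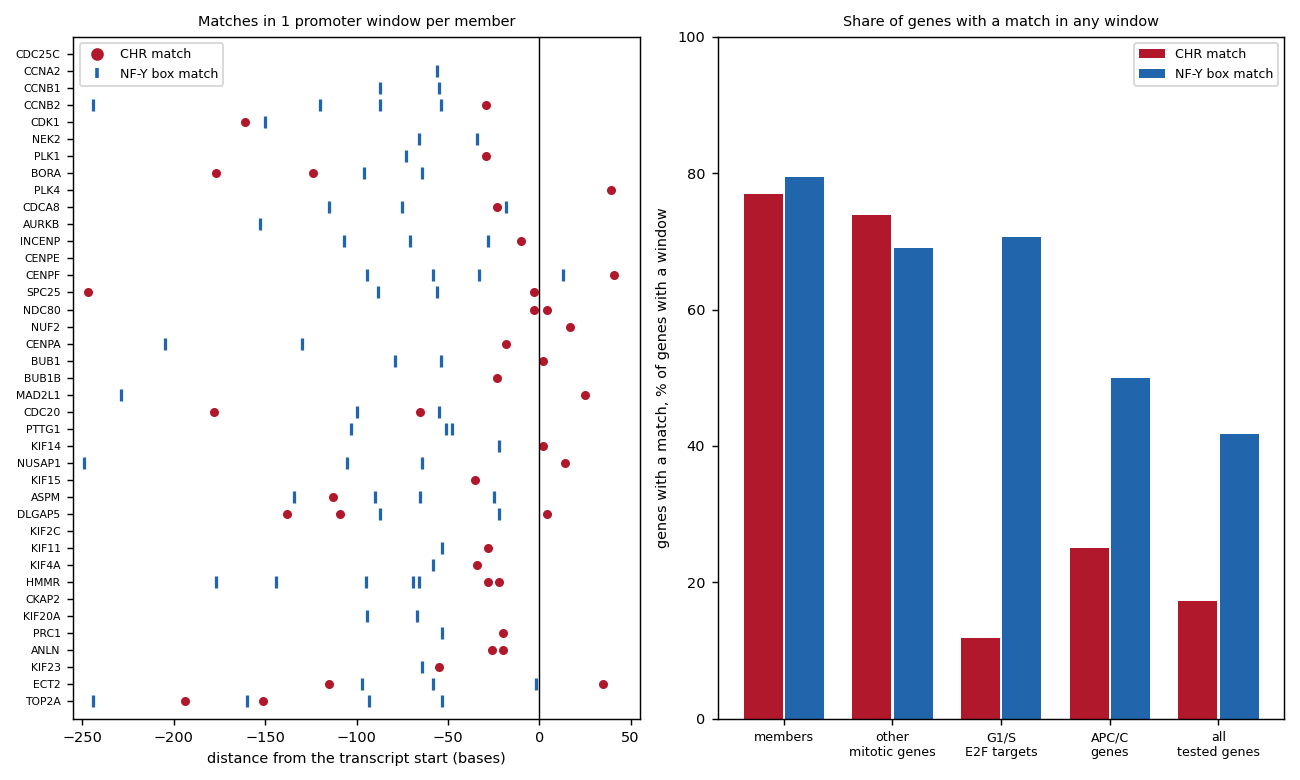
Left, positions of CHR matches (red dots) and NF-Y box matches (blue ticks) in 1 promoter window of each of the 39 members, as distance from the transcript start in bases, which lies at 0. CHR matches gather near the start and CCAAT matches upstream of it, and a member can hold further matches in another window. Right, the share of genes with a match in any window, in percent: 76.9% of members had a CHR match, 73.8% of other mitotic genes, 11.8% of G1/S genes, 25% of APC/C genes and 17.2% of all tested genes.

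CXCR4 itself (probe set 217028_at) read 7.06, 7.10 and 7.11 in shCXCR4 I and 6.39, 6.73 and 6.75 in shCXCR4 II, against 8.51, 8.60 and 8.64 in Mock and 8.42, 8.28 and 8.30 in Parental on the log2 scale, and both knockdown lines lay below both controls with no overlap. It fell by 1.49 in shCXCR4 I (SE 0.09, limma adjusted p = 6.11e-08) and by 1.96 in shCXCR4 II (SE 0.09, limma adjusted p = 4.38e-09), against Mock. Array medians were 4.25 to 4.39, and their interquartile ranges were 3.38 to 3.43 in Mock, wider than the 3.19 to 3.31 of the other groups. Within a group the arrays correlated at 0.996 to 0.998 across the probe sets used, 1 per gene. Of 8 markers of ovarian carcinoma epithelium, EPCAM, KRT18, KRT19 and PAX8 averaged 11.78, 11.11, 11.25 and 10.14 over the 12 arrays, and MUC16 averaged 2.98. Of 7 leukocyte markers, the pan-leukocyte gene PTPRC averaged 3.08, and the mean of the 7 was 4.69 to 4.76 in shCXCR4 I and 4.70 to 4.75 in shCXCR4 II, against 4.28 to 4.44 in Mock and 4.57 to 4.69 in Parental. NCAM1, a leukocyte marker that other cells also make, was higher by 1.26 and 1.47 in lines I and II than in Mock and lower by 1.32 in Mock than in Parental. Of the 7 leukocyte markers, 3 were higher than Mock in shCXCR4 I and 2 in shCXCR4 II, and none was lower. Of all genes, 9.97% and 11.0% were higher than Mock in lines I and II, and 13.6% and 15.1% were lower. These shares also stand beside the counts of the marker lists below. The 7 fibroblast markers averaged 4.05 to 4.12 in shCXCR4 I and 4.07 to 4.34 in shCXCR4 II, against 3.98 to 4.08 in Mock, with 0 and 2 called higher in lines I and II. The 5 endothelial markers averaged 4.34 to 4.49 and 4.34 to 4.44 in lines I and II, against 4.28 to 4.46 in Mock, with 2 higher and 1 lower in line I and 1 higher in line II. The epithelial list averaged 8.84 to 8.87 in shCXCR4 I and 8.63 to 8.67 in shCXCR4 II, against 8.89 to 8.91 in Mock and 8.66 to 8.74 in Parental, with 1 higher and 1 lower in line I and 4 lower in line II. The widest differences were 0.35 for DCN in shCXCR4 II and -0.39 for FAP in Mock against Parental among fibroblast markers, -0.59 for CDH5 in shCXCR4 I, 0.40 for PECAM1 in shCXCR4 II and -0.29 for VWF in Mock against Parental among endothelial ones, and -0.67 and -1.00 for KRT7 in lines I and II. KRT7 was also 0.86 higher in Mock than in Parental. The part of these markers in the results was not tested.

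The mitotic genes were lower as a group in shCXCR4 I than in any other group, and shCXCR4 II lay between it and the controls. Averaged over the 45 members, the log2 level was 8.32, 8.36 and 8.31 in shCXCR4 I and 8.60, 8.63 and 8.71 in shCXCR4 II, against 8.86, 8.91 and 8.91 in Mock and 8.82, 8.84 and 8.82 in Parental. The groups of arrays did not overlap in this average. A gene was called higher or lower when limma's p, adjusted by Benjamini-Hochberg over all 19775 genes, was under 0.05, and a difference is the log2 value of the group named first minus that of the second. In shCXCR4 I against Mock, 43 of the 45 members were called lower, with 13.6% of all genes called lower, and 0 members were called higher, with 9.97% of all genes called higher. The median member difference was -0.59, against 0.02 over all genes. In shCXCR4 II against Mock, 26 members were called lower (15.1% of all genes) and 1, PTTG1, higher (11.0% of all genes), with a member median of -0.28 against 0.02 over all genes. A fit of the 8348 genes with a mean of at least 6 held 42 members. Of these genes, 35.2% were lower than Mock in shCXCR4 I and 36.5% in shCXCR4 II, with medians of -0.08 and -0.09. In the same fit, 13.8% and 10.7% of the genes were higher. These comparisons share the Mock arrays. The arrays measure RNA of whole cultures, so fewer cells in mitosis and less RNA per mitotic cell cannot be told apart.

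**Figure D2:**
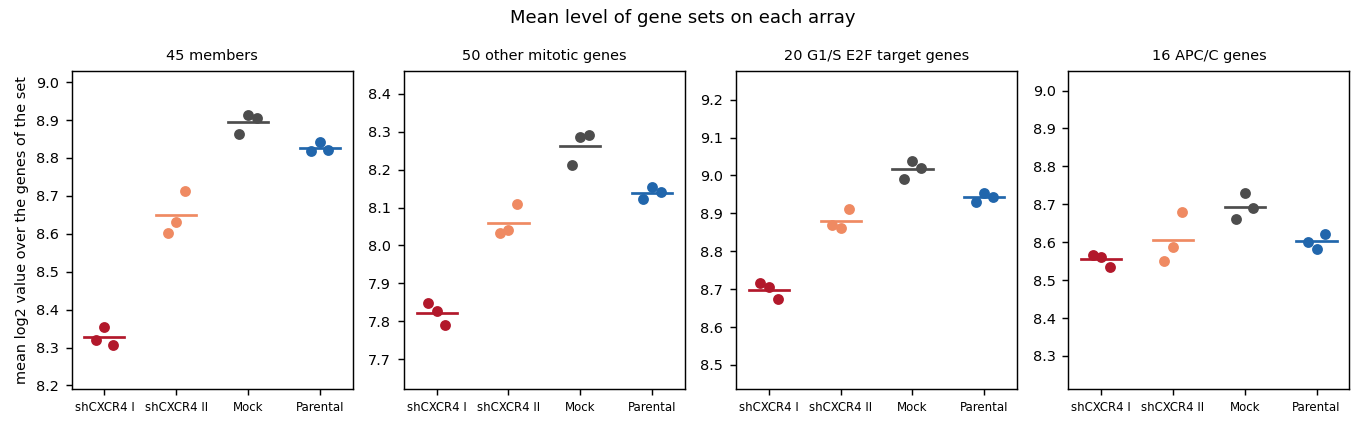
Mean log2 value per array over the 45 members, 50 other mitotic genes, 20 G1/S genes and 16 APC/C genes, with 1 point per array and a bar at the group mean of 3 arrays. The member means run from 8.31 to 8.36 in shCXCR4 I and 8.60 to 8.71 in shCXCR4 II, below 8.86 to 8.91 in Mock and 8.82 to 8.84 in Parental, and each panel has its own range with an equal span.

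The members were expressed at clear levels. Their means over the 12 arrays ran from 5.59 for INCENP to 10.83 for PTTG1 on the log2 scale, with a median of 8.81, and the median member stood at the 88.9th percentile of all genes. Only INCENP, PLK4 and CDC25C averaged under 6. They lie on 18 chromosomes, with 8 of the 45 on chromosome 1. Within a group of 3 arrays the SD of a member had a median of 0.06 and a maximum of 0.28 for NUF2 in shCXCR4 II. Replicate 3 of shCXCR4 II stood above its group's mean for 36 of 45 members, by 0.06 on average, the widest such shift of the 12 arrays.

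**Figure D3:**
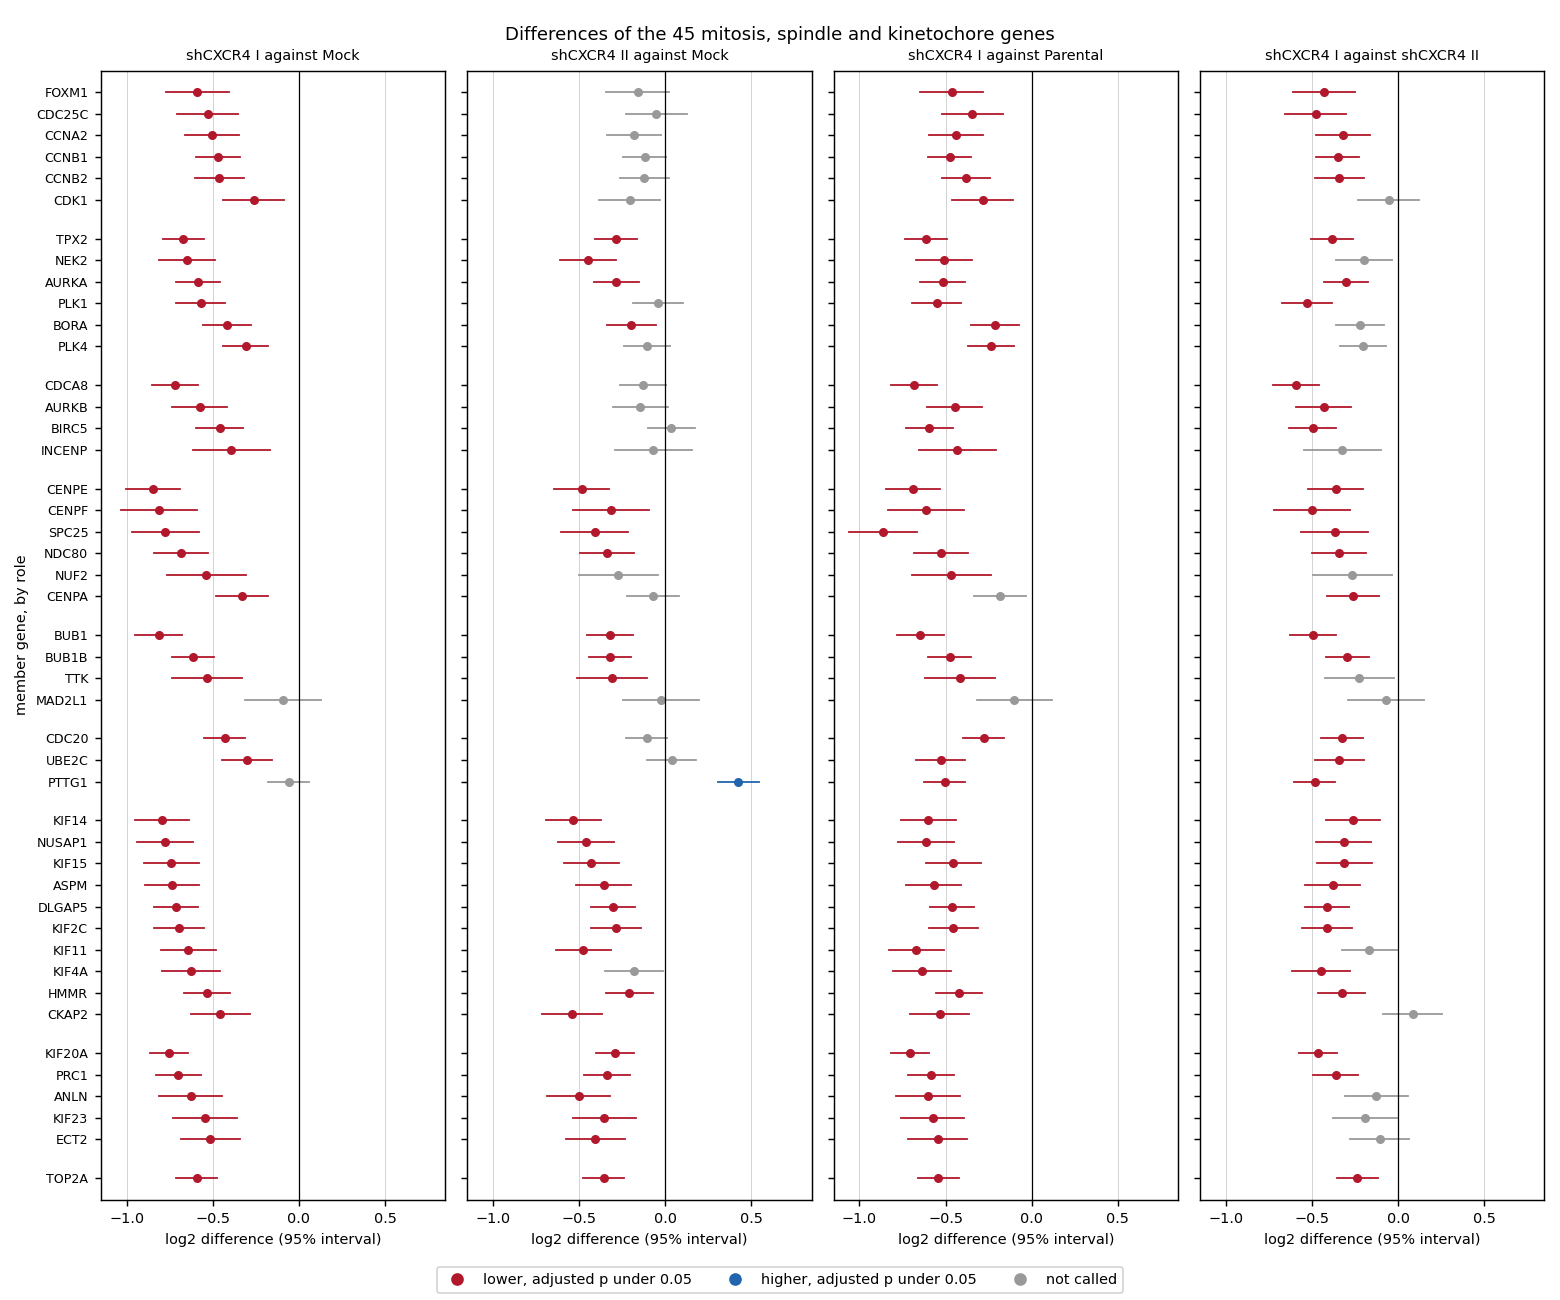
Log2 differences of the 45 members in 4 comparisons, grouped by role, with 95% intervals from limma's fit. Red points were called lower, blue higher and grey not called. Lower calls number 43, 26, 43 and 32 from left to right, and the 1 blue point is PTTG1 in shCXCR4 II against Mock.

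The 6 genes that carry cells into mitosis were all lower in shCXCR4 I than in Mock, and none of them was called in shCXCR4 II. FOXM1, a transcription factor of G2 and mitotic genes, read 7.41, 7.35 and 7.14 in shCXCR4 I and 7.79, 7.63 and 7.76 in shCXCR4 II, against 7.81, 7.83 and 8.03 in Mock and 7.82, 7.73 and 7.75 in Parental (probe set 202580_x_at). The shCXCR4 I arrays lay below all others, and the shCXCR4 II arrays lay below Mock by a narrow margin and overlapped Parental. FOXM1 fell by 0.59 in shCXCR4 I (SE 0.08, limma adjusted p = 0.000218), down to 66.4% of the Mock level, and differed by -0.16 in shCXCR4 II (limma adjusted p = 0.177). CDK1, the kinase that cyclin B activates, moved least of the 6 in shCXCR4 I and most in shCXCR4 II. It read 9.72, 9.80 and 9.78 in shCXCR4 I and 9.63, 9.83 and 10.01 in shCXCR4 II, against 10.03, 10.09 and 9.98 in Mock and 10.04, 10.06 and 10.05 in Parental (203213_at). Its shCXCR4 I arrays lay below Mock, while its shCXCR4 II arrays overlapped Mock. The CDK1 difference was -0.26 in shCXCR4 I (SE 0.08, limma adjusted p = 0.0322) and -0.21 in shCXCR4 II (limma adjusted p = 0.0776). The first of these calls ended when any of 5 arrays was left out (each shCXCR4 I array, Mock 1 or Mock 2) and under quantile normalization. The cyclins CCNA2, CCNB1 and CCNB2 fell by 0.50, 0.47 and 0.46 in shCXCR4 I, and read -0.18, -0.12 and -0.12 in shCXCR4 II without a call.

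CDC25C, the phosphatase that switches CDK1 on, read 5.53, 5.46 and 5.74 in shCXCR4 I and 6.09, 6.13 and 5.95 in shCXCR4 II, against 6.11, 6.18 and 6.03 in Mock and 6.02, 5.89 and 5.85 in Parental (205167_s_at). Only the shCXCR4 I arrays stood apart from both controls. CDC25C fell by 0.53 in shCXCR4 I (SE 0.08, limma adjusted p = 0.000434), against -0.05 in shCXCR4 II. Its probe sets disagree: on the dimmer 216914_at, with a mean of 4.30, the differences were 0.32 and 0.41 and were called higher, and on 217010_s_at, with a mean of 4.68, they were -0.30 and -0.13. The direction for CDC25C therefore depends on the probe set.

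All 6 mitotic kinases and their activators were lower in shCXCR4 I than in Mock, and 4 of the 6 in shCXCR4 II. TPX2, which activates Aurora A on the spindle, read 9.46, 9.47 and 9.42 in shCXCR4 I and 9.83, 9.81 and 9.86 in shCXCR4 II, against 10.09, 10.11 and 10.17 in Mock and 10.03, 10.14 and 10.02 in Parental (210052_s_at). The arrays formed 3 separate levels, with shCXCR4 I lowest and the controls together at the top. TPX2 fell by 0.67 in shCXCR4 I (SE 0.06, limma adjusted p = 2.29e-06) and by 0.29 in shCXCR4 II (limma adjusted p = 0.00267). NEK2, a kinase that helps split the centrosomes, had the widest fall of these 6 in shCXCR4 II, with 8.56, 8.69 and 8.56 in shCXCR4 I and 8.66, 8.78 and 8.97 in shCXCR4 II, against 9.22, 9.28 and 9.25 in Mock and 9.05, 9.12 and 9.16 in Parental (204641_at). Its 2 knockdown lines overlapped each other, and both lay below Mock and Parental. The NEK2 differences were -0.65 and -0.45 in lines I and II (SE 0.08 each, limma adjusted p = 4.03e-05 and 0.000891). PLK4, the kinase of centriole duplication, was among the dimmest members, with 5.74, 5.70 and 5.66 in shCXCR4 I and 5.90, 5.84 and 5.97 in shCXCR4 II, against 6.10, 5.94 and 6.00 in Mock and 5.93, 5.92 and 5.97 in Parental (204887_s_at). Line I stood below the other groups, and line II overlapped both controls. PLK4 fell by 0.31 in shCXCR4 I (SE 0.06, limma adjusted p = 0.00264), against -0.11 in shCXCR4 II (limma adjusted p = 0.221).

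Aurora A (AURKA), the spindle pole kinase, fell by 0.59 and 0.28 in lines I and II, and the call in line II ended with the mean of its probe sets (-0.17, limma adjusted p = 0.0865). PLK1, the main Polo kinase of mitosis, read 8.01, 8.02 and 8.09 in shCXCR4 I and 8.68, 8.53 and 8.50 in shCXCR4 II, against 8.58, 8.70 and 8.55 in Mock and 8.63, 8.58 and 8.56 in Parental. Its shCXCR4 II arrays lay among the controls. PLK1 fell by 0.57 in shCXCR4 I (limma adjusted p = 4.03e-05), against -0.04 in shCXCR4 II. BORA, a cofactor through which Aurora A activates PLK1, fell by 0.42 in shCXCR4 I and by 0.20 in shCXCR4 II. The call for line II (limma adjusted p = 0.0405) ended when any of 9 of the 12 arrays was left out and under quantile normalization, where the difference was -0.07.

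The chromosomal passenger complex corrects faulty attachments at the centromere and then acts in cytokinesis. All 4 of its subunits were lower in shCXCR4 I than in Mock and none was called in shCXCR4 II. CDCA8 (Borealin) read 8.48, 8.65 and 8.52 in shCXCR4 I and 9.14, 9.15 and 9.15 in shCXCR4 II, against 9.22, 9.35 and 9.25 in Mock and 9.25, 9.18 and 9.27 in Parental (221520_s_at). The shCXCR4 I arrays stood far below the rest, and the shCXCR4 II arrays lay just under both controls. CDCA8 fell by 0.72 in shCXCR4 I (SE 0.06, limma adjusted p = 2.89e-06), down to 60.6% of the Mock level, and read -0.13 in shCXCR4 II (limma adjusted p = 0.148). AURKB, the kinase of the complex, read 7.41, 7.47 and 7.38 in shCXCR4 I and 7.80, 7.79 and 7.95 in shCXCR4 II, against 7.89, 8.13 and 7.97 in Mock and 7.90, 7.91 and 7.79 in Parental (209464_at). Line I did not overlap any group, and line II overlapped both controls. AURKB fell by 0.58 in shCXCR4 I (SE 0.07, limma adjusted p = 8.91e-05), against -0.15 in shCXCR4 II. INCENP, the scaffold, was the dimmest member, with 5.03, 5.47 and 5.42 in shCXCR4 I and 5.66, 5.59 and 5.64 in shCXCR4 II, against 5.81, 5.75 and 5.54 in Mock and 5.78, 5.67 and 5.76 in Parental (219769_at). All 3 shCXCR4 I arrays lay below Mock, with replicate 1 well under the other two. INCENP fell by 0.39 in shCXCR4 I (SE 0.10, limma adjusted p = 0.0151), a call that ended without shCXCR4 I replicate 1 (difference -0.25, limma adjusted p = 0.0534), without Mock replicate 1 or 2, and in a fit of the compared groups alone. BIRC5 (survivin) fell by 0.46 in shCXCR4 I and read 0.03 in shCXCR4 II.

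The kinetochore genes had the widest median fall of the roles with more than 1 member, at -0.73 in shCXCR4 I, where all 6 were called lower, and 4 of the 6 were called lower in shCXCR4 II. CENPE, the kinesin that carries chromosomes to the spindle equator, read 6.64, 6.58 and 6.68 in shCXCR4 I and 7.04, 7.03 and 6.91 in shCXCR4 II, against 7.48, 7.34 and 7.62 in Mock and 7.28, 7.33 and 7.36 in Parental (205046_at). The 2 knockdown lines overlapped neither each other nor the controls, and line I was the lower. Its level in shCXCR4 I was 55.5% of the Mock level, and in shCXCR4 II 71.4%. The CENPE differences of -0.85 and -0.49 had an SE of 0.07 each (limma adjusted p = 2.96e-06 and 0.000412). CENPA, the histone variant that marks the centromere, moved least, with 6.77, 6.88 and 6.83 in shCXCR4 I and 7.06, 7.17 and 7.04 in shCXCR4 II, against 7.14, 7.28 and 7.05 in Mock and 6.96, 7.03 and 7.05 in Parental (210821_x_at). Line I lay below the other groups, and line II overlapped both controls. CENPA fell by 0.33 in shCXCR4 I (SE 0.07, limma adjusted p = 0.00399), against -0.07 in shCXCR4 II. NDC80, SPC25 and NUF2 form the microtubule-binding NDC80 complex. They fell by 0.68, 0.78 and 0.54 in shCXCR4 I, and in shCXCR4 II NDC80 and SPC25 fell by 0.34 and 0.41 while NUF2 read -0.27 (limma adjusted p = 0.0761). CENPF, a large protein of the outer kinetochore, fell by 0.81 and 0.31, and the call in shCXCR4 II ended without shCXCR4 II replicate 2 or 3, without Parental replicate 3, without Mock replicate 2, without Mock replicate 3 (difference -0.19) and under quantile normalization (-0.22).

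Of the 4 spindle checkpoint genes, BUB1, BUB1B and TTK were lower than Mock in both lines and MAD2L1 in neither. BUB1, the kinase that recruits checkpoint proteins to kinetochores, read 7.08, 7.17 and 7.01 in shCXCR4 I and 7.56, 7.57 and 7.62 in shCXCR4 II, against 7.86, 7.88 and 7.96 in Mock and 7.76, 7.66 and 7.77 in Parental (209642_at). The 4 groups followed each other without overlap, in the order shCXCR4 I, shCXCR4 II, Parental and Mock. BUB1 fell by 0.82 in shCXCR4 I (SE 0.06, limma adjusted p = 9.61e-07) and by 0.32 in shCXCR4 II (limma adjusted p = 0.00246). The call in shCXCR4 II ended with the mean of its probe sets (-0.06, limma adjusted p = 0.454), 3 of which averaged under 6. BUB1B (BubR1), a part of the complex that inhibits the APC/C, read 8.51, 8.57 and 8.44 in shCXCR4 I and 8.76, 8.80 and 8.84 in shCXCR4 II, against 9.09, 9.17 and 9.10 in Mock and 8.98, 9.00 and 8.95 in Parental (203755_at). It showed the same order without overlap. BUB1B fell by 0.62 and 0.32 in lines I and II (SE 0.06 each, limma adjusted p = 6e-06 and 0.0014). MAD2L1 (Mad2), which the unattached kinetochore turns into its inhibitory form, read 10.41, 10.37 and 10.42 in shCXCR4 I and 10.16, 10.56 and 10.68 in shCXCR4 II, against 10.51, 10.51 and 10.46 in Mock and 10.53, 10.52 and 10.44 in Parental (203362_s_at). The shCXCR4 I arrays lay just below both controls, and the shCXCR4 II arrays spread across all of them, with replicate 1 lowest of all 12. Its differences were -0.09 (95% interval -0.31 to 0.13) and -0.02 (-0.24 to 0.20), with limma adjusted p = 0.543 and 0.882. TTK (Mps1), the kinase that starts checkpoint signalling, fell by 0.53 and 0.31, and its call in shCXCR4 II (limma adjusted p = 0.0277) ended without shCXCR4 II replicate 1 (difference -0.18), without Mock replicate 2 or 3, and under quantile normalization (-0.18).

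The 3 anaphase genes split. CDC20, the mitotic activator of the APC/C, read 9.99, 10.02 and 9.96 in shCXCR4 I and 10.34, 10.24 and 10.36 in shCXCR4 II, against 10.39, 10.44 and 10.43 in Mock and 10.27, 10.26 and 10.27 in Parental (202870_s_at). Line I lay below all other arrays, and line II below Mock but among Parental. CDC20 fell by 0.43 in shCXCR4 I (SE 0.06, limma adjusted p = 9.03e-05), against -0.11 in shCXCR4 II (limma adjusted p = 0.173). UBE2C, the ubiquitin-conjugating enzyme of the APC/C, fell by 0.30 in shCXCR4 I and read 0.04 in shCXCR4 II.

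PTTG1 (securin), the inhibitor of the protease that separates sister chromatids, followed another order than the rest. It read 10.57, 10.57 and 10.55 in shCXCR4 I and 11.07, 10.99 and 11.08 in shCXCR4 II, against 10.58, 10.67 and 10.63 in Mock and 11.09, 11.08 and 11.04 in Parental (203554_x_at). Line I and Mock were low, line II and Parental high, and no array of the low pair reached the high pair. PTTG1 read -0.06 in shCXCR4 I against Mock (SE 0.05, limma adjusted p = 0.462) and rose by 0.42 in shCXCR4 II (SE 0.05, limma adjusted p = 0.000117). It was lower by 0.44 in Mock than in Parental (limma adjusted p = 9.72e-05), and differed by -0.02 between shCXCR4 II and Parental (limma adjusted p = 0.833). PTTG1 has 1 probe set with its symbol alone, of the _x_at type, whose probes can also match near-identical copies of a gene, so the value may hold more than the PTTG1 transcript.

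**Figure D4:**
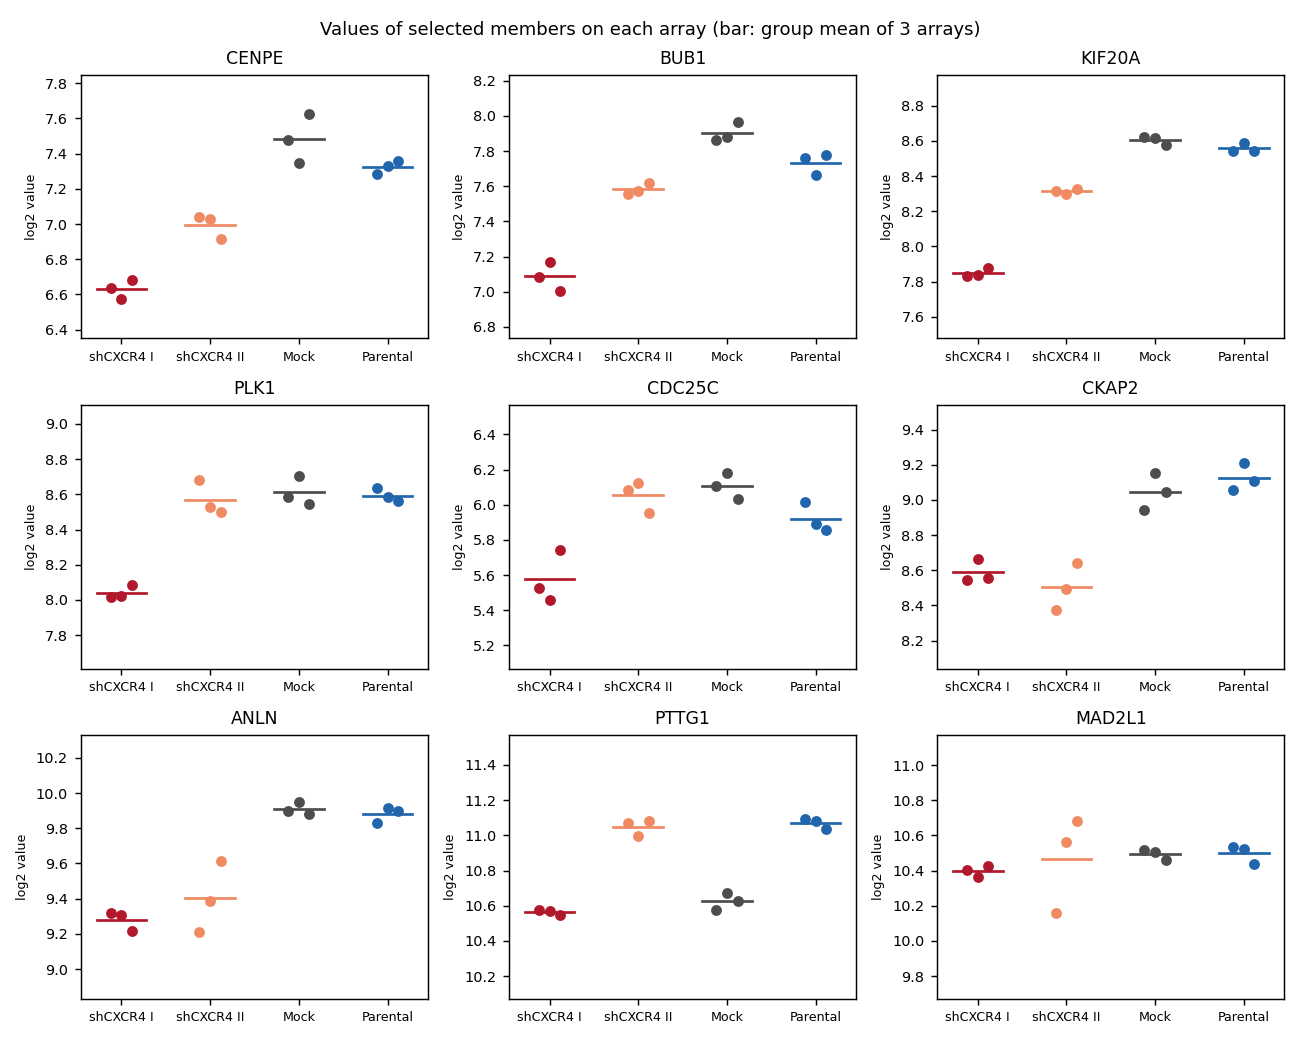
Log2 values of selected members on each of the 12 arrays, with a bar at the mean of the 3 arrays of a group. CENPE, BUB1 and KIF20A step down from the controls to shCXCR4 II and shCXCR4 I, and PLK1 and CDC25C are low in shCXCR4 I alone. CKAP2 and ANLN are low in both lines, and PTTG1 is low in shCXCR4 I and Mock. MAD2L1 in shCXCR4 II spans the other groups, and in shCXCR4 I it lies just below both controls. Each panel has its own range.

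Spindle motors and microtubule binders were the largest role. All 10 were lower in shCXCR4 I than in Mock, and 9 of the 10 in shCXCR4 II. KIF14, a kinesin of the central spindle and midbody, read 7.89, 7.84 and 7.77 in shCXCR4 I and 8.17, 8.09 and 8.03 in shCXCR4 II, against 8.52, 8.59 and 8.77 in Mock and 8.39, 8.51 and 8.40 in Parental (206364_at). Neither line overlapped a control or the other line. KIF14 fell by 0.79 and 0.53 in lines I and II (SE 0.07 each, limma adjusted p = 5.48e-06 and 0.000198). CKAP2, a protein that stabilizes spindle microtubules, read 8.54, 8.66 and 8.56 in shCXCR4 I and 8.37, 8.49 and 8.64 in shCXCR4 II, against 8.94, 9.15 and 9.04 in Mock and 9.06, 9.21 and 9.10 in Parental (218252_at). The 2 lines overlapped each other and lay below every control array. CKAP2 fell by 0.46 in shCXCR4 I and by 0.54 in shCXCR4 II (SE 0.08 each, limma adjusted p = 0.00109 and 0.000355). It is the only member whose mean was higher in shCXCR4 I than in shCXCR4 II.

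The kinesins KIF11 and KIF15, which push spindle poles apart, fell by 0.64 and 0.74 in shCXCR4 I and fell by 0.48 and 0.43 in shCXCR4 II. KIF2C (MCAK), which takes microtubules apart at the centromere, fell by 0.70 and 0.28. The chromosome-bound kinesin KIF4A fell by 0.63 in shCXCR4 I and read -0.18 in shCXCR4 II, with limma adjusted p = 0.105. The microtubule binding proteins NUSAP1, DLGAP5 (HURP), ASPM and HMMR all fell in both lines. Their falls were 0.78, 0.72, 0.74 and 0.54 in shCXCR4 I, and 0.46, 0.30, 0.36 and 0.21 in shCXCR4 II. The HMMR call in shCXCR4 II (limma adjusted p = 0.0265) ended without shCXCR4 II replicate 1 or 2, without Mock replicate 1 or 2, and under quantile normalization, where the difference was -0.10.

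All 5 cytokinesis genes were lower than Mock in both lines on the probe sets used, though for ECT2 and KIF23 this depended on the probe set. KIF20A (MKLP2), the kinesin that brings the passenger complex to the central spindle, read 7.83, 7.84 and 7.88 in shCXCR4 I and 8.31, 8.30 and 8.33 in shCXCR4 II, against 8.62, 8.62 and 8.57 in Mock and 8.54, 8.59 and 8.54 in Parental (218755_at). Replicates lay within a few hundredths of each other, and the lines formed 2 separate steps below the controls. KIF20A fell by 0.76 and 0.29 (SE 0.05 each, limma adjusted p = 3.08e-07 and 0.00124). ANLN (anillin), which organizes the contractile ring, read 9.32, 9.31 and 9.21 in shCXCR4 I and 9.21, 9.39 and 9.62 in shCXCR4 II, against 9.90, 9.95 and 9.88 in Mock and 9.83, 9.92 and 9.90 in Parental (222608_s_at). The lines overlapped each other but not the controls. ANLN fell by 0.63 and 0.50 (SE 0.08 each, limma adjusted p = 0.00014 and 0.000928). ECT2, the exchange factor that activates RhoA at the cell equator, read 9.53, 9.54 and 9.54 in shCXCR4 I and 9.50, 9.69 and 9.74 in shCXCR4 II, against 9.97, 10.19 and 9.99 in Mock and 10.08, 10.17 and 9.99 in Parental (219787_s_at). Both lines lay below both controls, and they overlapped each other. ECT2 fell by 0.51 and 0.41 (SE 0.08 each, limma adjusted p = 0.000422 and 0.00252). PRC1, which bundles microtubules of the central spindle, fell by 0.70 and 0.34, and KIF23, a motor of the centralspindlin complex, by 0.55 and 0.35. With the mean of each gene's probe sets, the calls in shCXCR4 II ended for ECT2 (-0.14, limma adjusted p = 0.275) and KIF23 (-0.17, limma adjusted p = 0.0677). When _x_at and _s_at probe sets were left out, ECT2 read -0.14 and 0.083 in lines I and II and KIF23 read 0.10 and 0.0041, with no call, on probe sets that averaged 5.36 and 2.77.

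TOP2A, the topoisomerase that untangles sister chromatids, was among the most highly expressed members, with 10.43, 10.46 and 10.38 in shCXCR4 I and 10.64, 10.64 and 10.70 in shCXCR4 II, against 11.02, 10.96 and 11.07 in Mock and 10.96, 10.96 and 10.98 in Parental (201291_s_at). The 2 lines overlapped neither each other nor the controls. TOP2A fell by 0.59 in shCXCR4 I (SE 0.06, limma adjusted p = 5.86e-06) and by 0.36 in shCXCR4 II (limma adjusted p = 0.000493).

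The knockdown lines also differed from each other. In shCXCR4 I against shCXCR4 II, 32 of the 45 members were called lower, with 2.48% of all genes called lower, and 0 higher, with 4.66% of all genes called higher. Among genes with a mean of at least 6, 8.86% were lower and 13.9% higher. The member median was -0.33, against 0.00 over all genes, and the mean was lower in shCXCR4 I for 44 of 45 members. CDCA8 had the lowest difference, -0.59 (SE 0.06, limma adjusted p = 6.48e-05), followed by PLK1 at -0.53 (limma adjusted p = 0.000323). By role, the lower calls in line I were 5 of 6 entry genes, 3 of 6 kinases, 3 of 4 passenger subunits, 5 of 6 kinetochore genes, 2 of 4 checkpoint genes, all 3 anaphase genes, 8 of 10 spindle genes, 2 of 5 cytokinesis genes and TOP2A, and differences between roles were not tested. Among the 13 genes without a call, CKAP2 differed by 0.08 (95% interval -0.09 to 0.26), CDK1 by -0.06 (-0.23 to 0.12), MAD2L1 by -0.07 (-0.29 to 0.15), ECT2 by -0.11 (-0.28 to 0.06) and ANLN by -0.13 (-0.31 to 0.06). For BORA, PLK4, NEK2, INCENP, NUF2, TTK, KIF11 and KIF23 the interval lay below 0, from -0.55 to -0.10 for INCENP to -0.33 to -0.01 for KIF11, while the adjusted p missed the threshold. CXCR4 stood higher in shCXCR4 I than in shCXCR4 II, by 0.47 (limma adjusted p = 0.00517). With no _x_at or _s_at probe sets, 38 members are left and 19 of them were called lower between the lines.

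The untransfected Parental cells gave a second control, and their comparisons share the knockdown arrays with those against Mock. In shCXCR4 I against Parental, 43 of 45 were lower, with 8.56% of all genes and 21.9% of those with a mean of at least 6. None of the 45 members was higher (8.25% of all genes), and their median was -0.52. SPC25 was lowest at -0.86 (SE 0.09, limma adjusted p = 1.93e-05). The 2 members without a call were MAD2L1 at -0.10 (limma adjusted p = 0.58) and CENPA at -0.18 (limma adjusted p = 0.0925), while PTTG1 fell by 0.50 (limma adjusted p = 2.4e-05). In shCXCR4 II against Parental, 16 members were lower, with 9.48% of all genes and 23.7% of those with a mean of at least 6. For higher calls the count was 0 (7.47% of all genes), and the member median was -0.18. These 16 were AURKA, TPX2, NEK2, CENPE, SPC25, BUB1B, KIF11, KIF14, NUSAP1, CKAP2, all 5 cytokinesis genes and TOP2A. The BUB1B call (limma adjusted p = 0.0457) ended when any of 10 of the 12 arrays was left out and under quantile normalization. The AURKA and PRC1 calls ended without any of 4 arrays each and under quantile normalization, and the NUSAP1 call ended without shCXCR4 II replicate 2 or Parental replicate 2 or 3. CKAP2 had the lowest value at -0.62 (limma adjusted p = 0.000128), followed by KIF11 and SPC25 at -0.50 each and ANLN at -0.48. None of the entry genes, passenger subunits or anaphase genes was called there, and CDC25C read 0.13.

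Mock and Parental differed little in these genes. In Mock against Parental, 4 of 45 members were called higher, with 9.78% of all genes called higher, and 2 lower, with 5.23% of all genes called lower, and the member median was 0.07. The kinesin KIF15 read 6.97, 7.12 and 7.16 in Mock, against 6.81, 6.76 and 6.83 in Parental, and did not overlap. It was higher in Mock by 0.29 (limma adjusted p = 0.0197), as were DLGAP5 by 0.25 (0.0111), KIF2C by 0.24 (0.0264) and BORA by 0.21 (0.0499). UBE2C was lower in Mock, with 10.26, 10.33 and 10.11 against 10.42, 10.47 and 10.48 in Parental, a difference of -0.22 (limma adjusted p = 0.0371). This call ended when any of 7 arrays was left out, after centring on array medians (-0.19) and in a fit of the compared groups alone. The higher calls numbered 1 without Parental replicate 1, Mock replicate 2 or Mock replicate 3, 2 without Parental replicate 2 or 3, 1 under quantile normalization, and 8 among genes with a mean of at least 6. Under quantile normalization 7.30% of all genes were called higher. In the separate fit of genes with a mean of at least 6, 27.2% were.

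Other probe sets of the members were read as a check. Of the 45 members, 23 have more than 1 single-symbol probe set, and 40 further probe sets exist in all. In shCXCR4 I against Mock, 17 of the 20 further probe sets with a mean of at least 6 were called lower and 0 higher, with p adjusted over all single-symbol probe sets and a median of -0.57. In shCXCR4 II against Mock, 9 of these 20 were called lower and 0 higher, with a median of -0.21 and values up to 0.20. Among the 20 probe sets with a mean under 6, 3 were called lower and 1 higher in shCXCR4 I, with a median of -0.05. This split by level was chosen after seeing the data. FOXM1, CENPA and PTTG1 are read on _x_at probe sets, whose probes can match other transcripts. Without _x_at and _s_at probe sets, 31 of the 38 members left were lower than Mock in shCXCR4 I and 19 in shCXCR4 II. In shCXCR4 I the lower calls of AURKA, ECT2, PLK4 and CENPF were lost, at -0.28, -0.14, -0.23 and -0.10, as were those of KIF23 and CDC25C, at 0.10 and 0.32. In shCXCR4 II those of BORA, AURKA and CENPF were lost, at -0.20, -0.04 and -0.05, as were those of ECT2 and KIF23. With the mean of each gene's probe sets, 41 members were lower in shCXCR4 I, without CCNB2 (-0.11) and CDC25C (-0.17), and 23 in shCXCR4 II, without BUB1, AURKA, ECT2 and KIF23 and with AURKB (-0.20).

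Members with and without a CHR match had close medians. In shCXCR4 I against Mock, 29 of the 30 members with a match were called lower, with a median of -0.61, as were 8 of the 9 without one, with a median of -0.58. Of the 6 members without a window, 6 were called lower, with a median of -0.56. In shCXCR4 II against Mock the counts were 18 of 30, 5 of 9 and 3 of 6. CENPE, whose printed promoter shows no match to the letters searched, had the lowest difference of all 45. PTTG1, whose promoter shows matches to CCAAT alone, was the member that rose in shCXCR4 II.

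Of 50 other mitotic genes, 43 were lower than Mock in shCXCR4 I and 25 in shCXCR4 II (86% and 50%), with medians of -0.42 and -0.22. None was higher in either line, with 9.97% and 11.0% of all genes higher. Lower calls made up 13.6% and 15.1% of all genes, and 35.2% and 36.5% of genes with a mean of at least 6. SMC2, a core subunit of condensin, read 7.18, 7.18 and 7.03 in shCXCR4 I and 7.49, 7.48 and 7.49 in shCXCR4 II, against 8.18, 8.43 and 8.32 in Mock and 8.07, 8.17 and 8.18 in Parental, and both lines lay below both controls without overlap. SMC2 fell by 1.18 and 0.83 in lines I and II (SE 0.07 each, limma adjusted p = 9.34e-08 and 3.04e-06). The 7 not called in shCXCR4 I were CKS1B, CKS2, CENPN, CENPI, CDC25B, DSN1 and SGO1, from -0.16 to 0.04. In Mock against Parental, 9 of the 50 were higher and 0 lower, with KNTC1, a kinetochore protein of the checkpoint, at 0.40 (limma adjusted p = 0.00288). Of all genes 9.78% were higher there and 5.23% lower, and of genes with a mean of at least 6, 27.2% were higher. Against Parental, 33 of the 50 were lower in shCXCR4 I (8.56% of all genes), with a median of -0.29. In shCXCR4 II against Parental, 10 were lower (9.48% of all genes) and 1 higher (7.47% of all genes), with a median of -0.09.

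Lower calls against Mock in the lists that follow stand beside 13.6% of all genes in shCXCR4 I and 15.1% in shCXCR4 II. In the fit of genes with a mean of at least 6, these shares were 35.2% and 36.5%. Higher calls against Mock stand beside 9.97% and 11.0% of all genes. Of 16 subunits and regulators of the APC/C, 7 were lower in shCXCR4 I than in Mock and 3 in shCXCR4 II (43.8% and 18.8%), with medians of -0.14 and -0.07, and the share in shCXCR4 II is near that of all genes. FBXO5 (EMI1), an inhibitor of the APC/C, was lowest at -0.43 (limma adjusted p = 0.00555) and -0.38 (limma adjusted p = 0.012). FZR1 (CDH1), its late activator, read 0.23 in Mock against Parental, with limma adjusted p = 0.105. Of 14 brakes on mitotic entry and exit phosphatases, 4 were lower and 1, GADD45A, higher in shCXCR4 I (median -0.10), and 3 lower and 0 higher in shCXCR4 II (median -0.05), with 28.6% and 21.4% lower in lines I and II. PPP1CB, a catalytic subunit of phosphatase PP1, read -0.34 in shCXCR4 I without a call (limma adjusted p = 0.119). The phosphatase CDC14B fell by 0.48 in shCXCR4 II and was 0.43 higher in Mock than in Parental.

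Of 16 genes of the DREAM, MuvB and NF-Y complexes, 5 were lower in shCXCR4 I and 6 in shCXCR4 II, none higher (31.2% and 37.5% lower), with medians of -0.20 and -0.11. RBL1 (p107), a pocket protein of DREAM, read 5.84, 5.55 and 5.61 in shCXCR4 I and 5.34, 5.99 and 5.87 in shCXCR4 II, against 6.19, 6.43 and 6.55 in Mock and 6.28, 6.20 and 6.22 in Parental. Both lines lay below both controls, and they overlapped each other. RBL1 fell by 0.72 and 0.66 (SE 0.14 each, limma adjusted p = 0.00256 and 0.00474). NFYB, a subunit of NF-Y, was higher by 0.29 in Mock than in Parental (limma adjusted p = 0.0316).

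Part of the G1/S genes that E2F factors drive were lower than Mock as well. Of 20, 12 were lower in shCXCR4 I and 6 in shCXCR4 II, none higher (60% and 30% lower), with medians of -0.30 and -0.15. RRM2, a subunit of ribonucleotide reductase, read 11.13, 11.22 and 11.17 in shCXCR4 I and 11.64, 11.55 and 11.50 in shCXCR4 II, against 11.77, 11.80 and 11.71 in Mock and 11.32, 11.31 and 11.38 in Parental. Line I lay below both controls, and line II between Parental and Mock. RRM2 fell by 0.59 in shCXCR4 I (SE 0.06, limma adjusted p = 1.18e-05) and by 0.20 in shCXCR4 II (limma adjusted p = 0.0252), and was 0.42 higher in Mock than in Parental (limma adjusted p = 0.000289). Cyclin E2 (CCNE2) fell by 0.39 in shCXCR4 II against Mock. Against Parental, 12 of the 20 were lower (8.56% of all genes) and 0 higher (8.25%) in shCXCR4 I, with a median of -0.26. In shCXCR4 II against Parental, 2 were lower (9.48% of all genes) and 4 higher (7.47%), with a median of -0.08. Mock itself had 4 of the 20 higher than Parental (9.78% of all genes) and 1 lower (5.23%). The lower shares of 10% in shCXCR4 II and 5% in Mock are near those of all genes.

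Of 10 G1 cyclins, kinases and related genes, 3 were lower than Mock in each line. The 1 gene called higher in each line was the transcription factor MYC. The medians were 0.09 and 0.03 in lines I and II. The D cyclin CCND3 fell by 0.49 in shCXCR4 I, and CCND1 fell by 0.59 in shCXCR4 II and was 0.35 higher in Mock than in Parental. Of 6 CDK inhibitors, CDKN1B (p27) was the 1 called, lower in both lines at -0.28 and -0.22. The widest differences of that list, CDKN2D in shCXCR4 I (-0.34, limma adjusted p = 0.0775), CDKN1C in shCXCR4 II (-0.29, 0.127) and CDKN2A in Mock against Parental (-0.31, 0.0966), had no call. Of 12 tubulins and tubulin regulators, 4 were lower and 1 higher in shCXCR4 I, and 1 lower and 1 higher in shCXCR4 II (33.3% and 8.33% lower). TUBA1A, an alpha tubulin, rose by 1.13 and 0.27 against Mock and was lower by 1.19 in Mock than in Parental, and TUBB2A, a beta tubulin, fell by 0.36 and 0.42.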

How the data were processed

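The deposited values are log2 intensities of 54675 probe sets, made by the authors with RMA in R 2.6.0, per the submitters' processing notes. For the chip definition the sources used here state nothing. Platform annotation gave 1 symbol to 41097 probe sets, several to 1801 and none to 11777. Those with several or none were left out, and 41043 were matched by Entrez ID. Each of 19775 genes was read on its brightest probe set, by the mean of all 12 arrays. A group-means model over the 12 arrays was fitted with limma 3.58.1 in R 4.3.3, with 8 residual and 5.19 prior degrees of freedom and Benjamini-Hochberg adjustment, and tested on simulated data. Promoter windows came from a RefSeq table. Tables and plots used Python 3.11.15, pandas 2.3.3, numpy 2.4.6, scipy 1.17.1 and matplotlib 3.10.9.

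The members and gene lists were chosen with earlier results of these data known. Values per array are given, in each role, for the members with the widest difference from Mock in either knockdown line, the member with the narrowest in shCXCR4 I, and PTTG1, with PLK1, CDC25C, KIF15 and UBE2C added after their values were seen. Of each list, the gene with the widest difference in a comparison is named. Alternatives changed the choice of probe set, the filter, the scaling, the variance model, the groups fitted and the replicates. The number of arrays, 3 per group, limits the precision.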

Additional observations from a re-analysis of the deposited data

Results flagged for a closer look

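The difference from a shared control was not the same in both clones for 32 members, by limma's direct test of shCXCR4 I against shCXCR4 II. All 32 were lower in shCXCR4 I. Among regulators of entry, the log2 differences were -0.48 for CDC25C, -0.43 for FOXM1, -0.35 for CCNB1, -0.34 for CCNB2 and -0.32 for CCNA2. Among the kinases they were -0.53 for PLK1, -0.39 for TPX2 and -0.30 for AURKA, and in the passenger complex -0.59 for CDCA8, -0.50 for BIRC5 and -0.43 for AURKB. The kinetochore genes gave -0.50 for CENPF, -0.37 for SPC25, -0.36 for CENPE, -0.34 for NDC80 and -0.26 for CENPA, and the checkpoint genes -0.49 for BUB1 and -0.30 for BUB1B. The anaphase genes gave -0.48 for PTTG1, -0.34 for UBE2C and -0.33 for CDC20. Spindle genes gave -0.45 for KIF4A, -0.41 for DLGAP5, -0.41 for KIF2C, -0.38 for ASPM, -0.33 for HMMR, -0.32 for NUSAP1, -0.31 for KIF15 and -0.26 for KIF14. The remaining differences were -0.46 for KIF20A, -0.36 for PRC1 and -0.24 for TOP2A. The KIF14 and CENPA calls ended when any 1 array of shCXCR4 I or Parental was left out, and after centring on array medians. In a fit of the compared groups alone they ended too, as did those of TOP2A, NUSAP1, CCNA2, NDC80, SPC25 and KIF15. Each line is 1 clone with its own shRNA, so clone and shRNA cannot be told apart in these differences. Groups of 3 arrays were not tested for single outlying arrays.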

How the results depend on the processing

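The count of members lower than Mock in shCXCR4 I was 41 to 43 when any 1 array was left out, and 42 or 43 under the scaling alternatives. In shCXCR4 II it was 22 to 27 with 1 array left out, 21 after quantile normalization (median -0.18) and 33 after centring on array medians (median -0.36), with PTTG1 higher throughout. Of all genes, 9.47% were lower there after quantile normalization and 21.5% after centring. With 1 array left out, the lower counts against Parental ran from 39 to 43 in shCXCR4 I and from 11 to 19 in shCXCR4 II, and between the lines from 25 to 33. Among genes with a mean of at least 6, 22 members were lower in shCXCR4 II than in Parental, with 23.7% of those genes lower. With the compared groups alone, 24 members were lower between the lines, with 1.06% of all genes lower. In Mock against Parental, leaving out 1 array gave 1 to 4 higher and 1 to 2 lower. There, 8 members were called higher among genes with a mean of at least 6, with 27.2% of those genes called higher. After quantile normalization 1 member was, with 7.30% of all genes. Lower calls numbered 1 after centring, 1 with the compared groups alone, and 0 without _x_at and _s_at probe sets. Without those probe sets, 38 members were left. Between the lines 19 were then lower, and in shCXCR4 I against Mock 1 was higher, CDC25C at 0.32. Its values were 0.41 in shCXCR4 II against Mock and 0.090 in shCXCR4 I against Parental. KIF23 read 0.10 and 0.0041 in lines I and II against Mock, and ECT2 read 0.083 in line II, all on dimmer probe sets. Deviations from the group mean correlated at -0.109 to 0.148 for same-numbered arrays of different groups, and at -0.228 to 0.234 for differently numbered ones. Whether arrays of different groups shared a batch was not tested. With the replicate block the lower calls were 43 and 24 in lines I and II against Mock, 42 and 15 against Parental, 31 between the lines, and in Mock against Parental 3 higher and 2 lower. Of 5340 member values recomputed, 5062 kept their side of the threshold, 77 of these with a change of sign in a value called in neither setting.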
